A study of Arabidopsis thaliana with 12 samples.

Results

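The group VII ethylene response factors (ERFs) and the enzymes that destroy them form the oxygen-sensing circuit of *Arabidopsis thaliana*. The genes of this circuit were followed by their gene identifiers, which makes 10 of the 33602 genes in the count table. The rule uses no measured value, but earlier results of these data were known when the genes were chosen. They are the transcription factors *RAP2.12* (AT1G53910), *RAP2.2* (AT3G14230), *RAP2.3* (AT3G16770), *HRE1* (AT1G72360) and *HRE2* (AT2G47520), the plant cysteine oxidases *PCO1* (AT5G15120) and *PCO2* (AT5G39890), the trihelix factor *HRA1* (AT3G10040), the haemoglobin *HB1* (AT2G16060) and the ubiquitin ligase *PRT6* (AT5G02310).

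In air, the group VII ERF proteins are unstable. Their first methionine is removed, plant cysteine oxidases use molecular oxygen to oxidise the cysteine that is then exposed, arginyl transferases (ATE1 and ATE2) add an arginine, and PRT6 recognises that arginine and marks the protein for the proteasome. When oxygen is short the cysteine is left intact, and the stabilised factors switch on genes of anaerobic metabolism, among them *ADH1* and *PDC1*. *PCO1*, *PCO2*, *HRA1* and *HB1* are themselves hypoxia-induced. The oxidases lead to the removal of the factors and HRA1 binds and restrains RAP2.12, so both act as brakes, whereas HB1 removes nitric oxide, a further signal needed for the breakdown. *RAP2.12*, *RAP2.2* and *RAP2.3* are known as constitutively expressed, *HRE1* and *HRE2* as hypoxia-induced.

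The study asked how NUP85, a structural protein of the nuclear pore, shapes the transcriptional response to abscisic acid (ABA), the hormone of drought and salt stress. Whole seedlings, 7 days old, of wild-type Col-0 and of *nup85-1*, a homozygous T-DNA insertion line in the same accession, were placed for 3 h in liquid medium without hormone (mock) or with 50 µM ABA. The 4 groups had 3 RNA-seq libraries each, 12 in all, and *nup85-1* is a single insertion allele. The labels describe mock seedlings in the same liquid, but a display in the study marks its mock columns as the start of the treatment. If that marking holds, ABA and the time in liquid cannot be told apart.

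The targeted gene was read first, as a check of the labels. *NUP85* stood at 31.3, 29.1 and 16.1 CPM (reads scaled to library size with TMM factors) in Col-0 mock replicates 1 to 3 and at 40.0, 41.5 and 29.3 CPM in Col-0 ABA. In *nup85-1* it stood at 3.54, 1.73 and 27.5 CPM under mock and at 3.20, 1.98 and 17.0 CPM after ABA. The libraries labelled *nup85-1* replicate 3 therefore went against their label, with *NUP85* inside the Col-0 range under mock and, after ABA, below every Col-0 ABA library but far above the other *nup85-1* libraries. Results are for all 3 replicates unless replicates 1 and 2 alone are named. Reads assigned to genes ranged from 6616931 to 29798437 per library. The green-tissue markers (5 genes) and root markers (6 genes) that define a whole seedling had no zero among their 132 counts over all libraries of both lists.

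The 5 ERFs share the feature that the oxygen-sensing route reads. Their first 36 coding bases, from RefSeq on TAIR10.1, are shown with the methionine and cysteine codons in capitals. *RAP2.12* lies at chr1:20135242-20135277 on the plus strand, *RAP2.2* at chr3:4738965-4739000 on the minus strand, *RAP2.3* at chr3:5705784-5705819 on the plus strand, *HRE1* at chr1:27241904-27241939 on the plus strand and *HRE2* at chr2:19503455-19503490 on the minus strand.
RAP2.12: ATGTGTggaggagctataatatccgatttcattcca
RAP2.2: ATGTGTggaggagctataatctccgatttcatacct
RAP2.3: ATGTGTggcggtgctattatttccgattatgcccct
HRE1: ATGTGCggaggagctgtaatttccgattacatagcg
HRE2: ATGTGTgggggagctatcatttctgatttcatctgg

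A cysteine codon in second place was found in 290 of 27444 protein-coding genes, or 1.057%, counting a gene when any annotated isoform had one. Of the 36 bases, 21 were identical in all 5 ERFs, and *RAP2.12* and *RAP2.2*, the most alike pair, shared 33. *HRE1* has 2 annotated starts, of which 1 carries the cysteine codon. The other members, *PCO1*, *PCO2*, *HRA1*, *HB1* and *PRT6*, do not start with this pair of codons. All 10 members were found in the annotation.

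The members split by their ABA response into 5 genes that rose strongly in both genotypes (*HRE2*, *PCO1*, *PCO2*, *HRA1* and *HB1*), 2 that rose by less than one doubling in Col-0 (*RAP2.12* and *RAP2.2*), and 3 that did not pass the test (*RAP2.3*, *HRE1* and *PRT6*). In Col-0, 7 of the 10 members were higher after ABA at an adjusted p under 0.05 in edgeR's quasi-likelihood test with Benjamini-Hochberg adjustment, and none was lower. Among all genes tested, 16.5% were called higher in that comparison (24.0% with replicates 1 and 2, where the members' count was again 7). At least 4-fold higher were 5 of the 10 members against 4.06% of all genes (4.14% with replicates 1 and 2, again 5 members). The median log2 fold change was 2.51 over the members and -0.01 over all genes. Without the replicate 1 libraries the count of members called in Col-0 was 4, with *RAP2.12*, *RAP2.2* and *HRA1* past the threshold no longer.

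**Figure D1:**
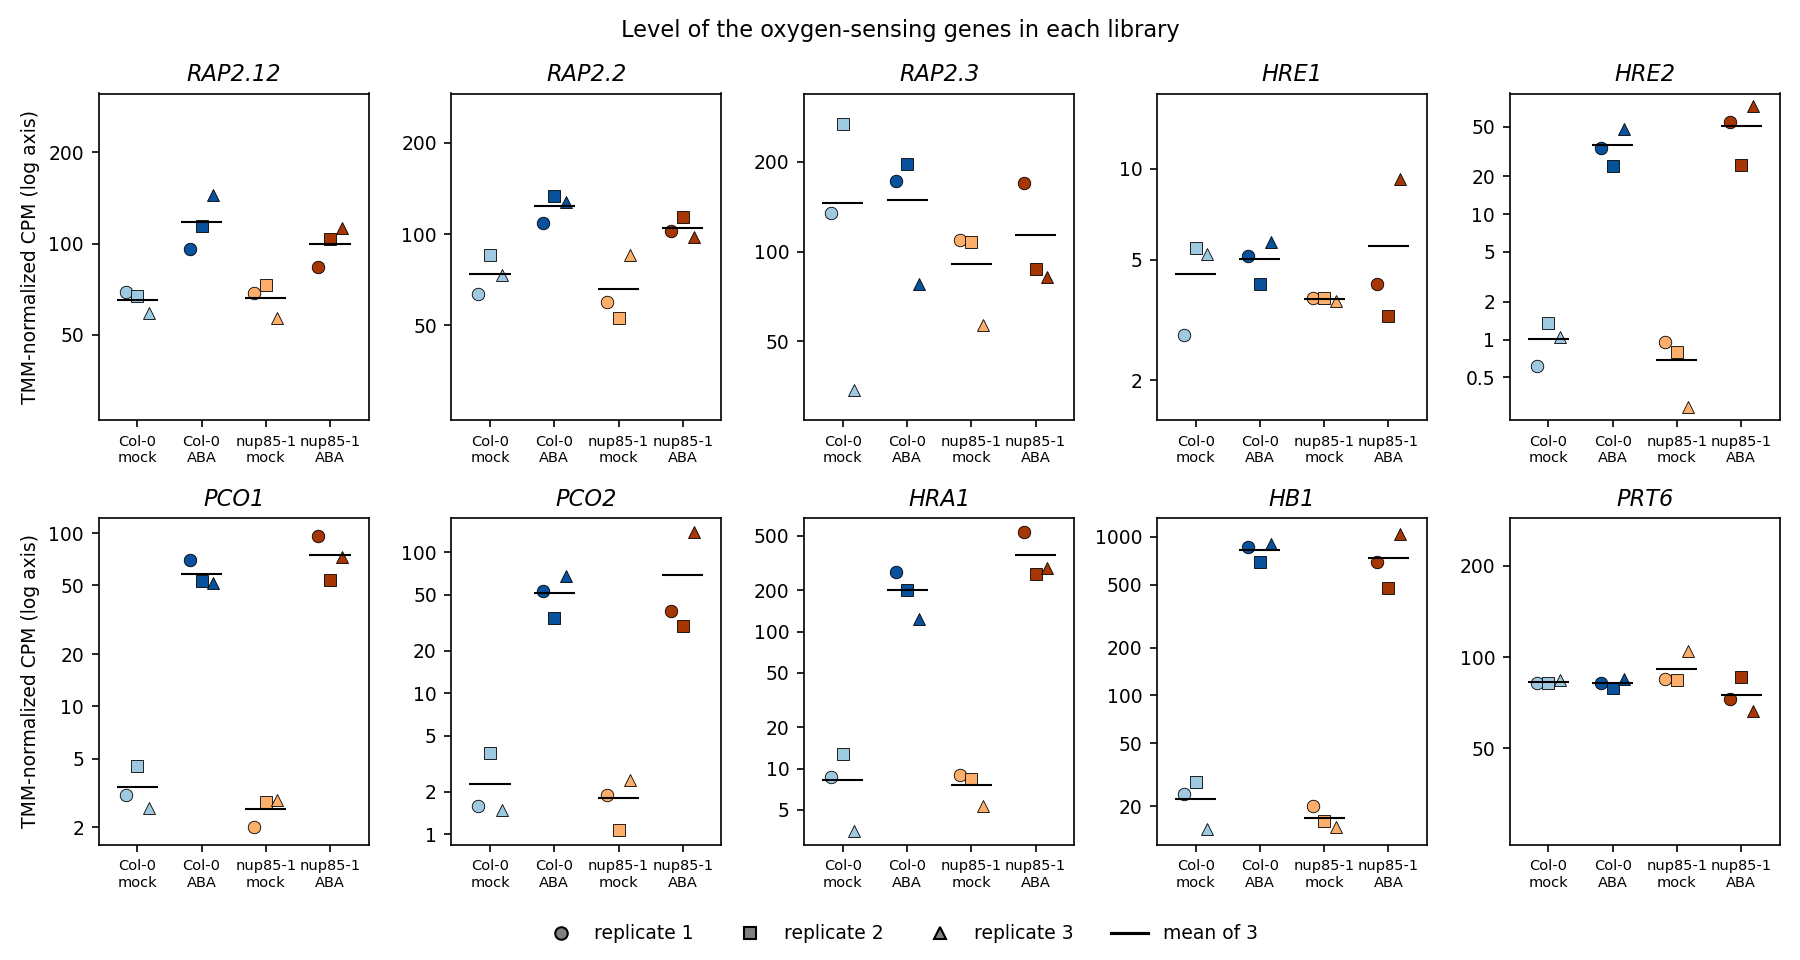
Level of each of the 10 genes in the 12 libraries, as TMM-normalized CPM on a log axis that differs between panels (points: libraries, with the replicate number by shape; lines: mean of 3). *HRE2*, *PCO1*, *PCO2*, *HRA1*, *HB1*, *RAP2.12* and *RAP2.2* had every ABA library above every mock library in both genotypes. *HRE1*, *RAP2.3* and *PRT6* overlapped. The share of all genes without overlap was not counted.

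Among the strongly raised genes *HB1*, the haemoglobin that removes nitric oxide, reached the highest level after ABA. It stood at 24.0, 28.5 and 14.4 CPM in Col-0 mock and at 866, 691 and 905 CPM in Col-0 ABA. In *nup85-1* the libraries were at 19.9, 16.1 and 14.7 CPM under mock and at 691, 476 and 1040 CPM after ABA. No mock library overlapped an ABA library, and the share of all genes without such overlap was not counted. The log2 fold change was 5.22 in Col-0 (SE 0.35, edgeR adjusted p = 0.000604) and 5.44 in *nup85-1* (SE 0.39, edgeR adjusted p = 0.000568), and with replicates 1 and 2 it was 4.91 and 5.0.

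*HRA1*, whose protein restrains RAP2.12, showed the widest spread between replicates among the strongly raised genes in Col-0. Col-0 mock libraries were at 8.65, 12.7 and 3.52 CPM and Col-0 ABA libraries at 275, 202 and 124 CPM. In *nup85-1* the levels were 9.0, 8.40 and 5.31 CPM under mock and 534, 265 and 290 CPM after ABA. Replicate 3 was lowest in both Col-0 groups, and the highest library of all was *nup85-1* ABA replicate 1. The rise was 4.64 on the log2 scale in Col-0 (SE 0.55, edgeR adjusted p = 0.0022) and 5.59 in *nup85-1* (SE 0.41, edgeR adjusted p = 0.000616). It was 4.52 and 5.51 with replicates 1 and 2.

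The oxidase genes *PCO1* and *PCO2* moved from a few CPM to a level well above it. *PCO1* stood at 3.09, 4.55 and 2.61 CPM in Col-0 mock and at 70.5, 52.8 and 51.5 CPM in Col-0 ABA. In *nup85-1* it was at 2.01, 2.80 and 2.87 CPM under mock and at 97.0, 53.5 and 73.2 CPM after ABA. Its SE was the smallest among the strongly raised genes in each genotype. The log2 fold change was 4.14 in Col-0 (SE 0.27, edgeR adjusted p = 0.000602) and 4.86 in *nup85-1* (SE 0.30, edgeR adjusted p = 0.000496). Replicates 1 and 2 gave 4.08 and 4.99.

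*PCO2* was at 1.59, 3.79 and 1.48 CPM in Col-0 mock and at 52.8, 34.3 and 67.8 CPM in Col-0 ABA. For *nup85-1* the values were 1.91, 1.07 and 2.44 CPM under mock and 38.5, 29.9 and 139 CPM after ABA. *nup85-1* ABA replicate 3, a library whose *NUP85* level went against its label, was far above the other two and lifted the mean of that group. The log2 fold change was 4.59 in Col-0 (SE 0.44, edgeR adjusted p = 0.00134) and 5.20 in *nup85-1* (SE 0.73, edgeR adjusted p = 0.00353). Without replicate 3 these were 4.15 and 4.45.

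The ERFs themselves divided. *HRE2*, the hypoxia-induced factor, had only 7 to 15 reads per Col-0 mock library and 4 to 10 per *nup85-1* mock library, or 0.618, 1.36 and 1.06 CPM and 0.957, 0.800 and 0.287 CPM. After ABA it stood at 33.9, 24.3 and 48.2 CPM in Col-0 and at 54.7, 24.8 and 72.6 CPM in *nup85-1*. It thus went from a handful of reads to a clear level in every library. The log2 fold change was 5.18 in Col-0 (SE 0.39, edgeR adjusted p = 0.000678) and 6.28 in *nup85-1* (SE 0.58, edgeR adjusted p = 0.00106), and with replicates 1 and 2 it was 5.02 and 5.45. The size of these folds is limited by the few reads in mock.

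*HRE1*, the other factor known as hypoxia-induced, did not follow. It stood at 2.82, 5.46 and 5.21 CPM in Col-0 mock and at 5.16, 4.18 and 5.71 CPM in Col-0 ABA. In *nup85-1* it was at 3.73, 3.73 and 3.66 CPM under mock and at 4.17, 3.28 and 9.27 CPM after ABA. The groups overlapped in each genotype, and *nup85-1* ABA replicate 3 alone stood out. The log2 difference was 0.18 in Col-0 (SE 0.31, edgeR adjusted p = 0.675) and 0.59 in *nup85-1* (SE 0.41, edgeR adjusted p = 0.312). It was 0.26 and -0.01 with replicates 1 and 2. The annotated *HRE1* gene overlaps AT1G72370 over 124 bases. Whether reads were counted by strand is not given in the sources used here, so the level of *HRE1* is uncertain.

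Of the factors known as constitutive, *RAP2.12* stood at 69.0, 67.3 and 58.9 CPM in Col-0 mock and at 96.2, 114 and 144 CPM in Col-0 ABA. In *nup85-1* it was at 68.5, 72.9 and 56.7 CPM under mock and at 83.7, 103 and 113 CPM after ABA. Every ABA library lay above every mock library of its genotype, though the share of all genes separated in this way was not counted. The log2 fold change was 0.87 in Col-0 (SE 0.19, edgeR adjusted p = 0.0161) and 0.60 in *nup85-1* (SE 0.19, edgeR adjusted p = 0.051). With replicates 1 and 2 it was 0.64 (edgeR adjusted p = 0.0114) and 0.40 (edgeR adjusted p = 0.0346).

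*RAP2.2* behaved alike in size. It was at 63.2, 85.4 and 73.0 CPM in Col-0 mock and at 109, 134 and 127 CPM in Col-0 ABA. The *nup85-1* libraries were at 59.8, 52.9 and 85.4 CPM under mock and at 102, 114 and 97.5 CPM after ABA. The groups did not overlap, with the share of all genes without overlap again not counted. *nup85-1* mock replicate 3 came nearest to the ABA range. The log2 fold change was 0.76 in Col-0 (SE 0.18, edgeR adjusted p = 0.0201) and 0.66 in *nup85-1* (SE 0.22, edgeR adjusted p = 0.0584), and with replicates 1 and 2 it was 0.73 (edgeR adjusted p = 0.0219) and 0.93 (edgeR adjusted p = 0.00042).

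*RAP2.3* varied more between replicates than between treatments. Its Col-0 mock libraries were at 135, 268 and 34.4 CPM and its Col-0 ABA libraries at 172, 197 and 77.7 CPM. In *nup85-1* the values were 109, 108 and 56.6 CPM under mock and 170, 87.7 and 82.2 CPM after ABA. Replicate 3 was the lowest library in all 4 groups. The log2 difference was 0.06 in Col-0 (SE 0.69, edgeR adjusted p = 0.959) and 0.31 in *nup85-1* (SE 0.37, edgeR adjusted p = 0.563). Replicates 1 and 2 gave -0.10 and 0.24.

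*PRT6*, which recognises the arginylated factors, was the steadiest member. It stood at 82.0, 82.0 and 83.9 CPM in Col-0 mock and at 82.3, 79.3 and 84.7 CPM in Col-0 ABA, a log2 difference of 0.00 (SE 0.14, edgeR adjusted p = 0.987). In *nup85-1* it was at 84.5, 84.2 and 104 CPM under mock and at 72.7, 86.0 and 66.2 CPM after ABA, a log2 difference of -0.28 (SE 0.18, edgeR adjusted p = 0.27), which was -0.09 (SE 0.12) with replicates 1 and 2. The Col-0 libraries of the 2 treatments overlapped, as did those of *nup85-1*. The annotated *PRT6* gene overlaps AT5G02320 over 150 bases, so a small part of its reads is uncertain.

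In *nup85-1*, 5 of the 10 members were called higher after ABA with all 3 replicates, against 15.4% of all genes, and 7 with replicates 1 and 2, against 25.6%. The 2 that differed were *RAP2.12* and *RAP2.2*, which DESeq2 also called with all 3 replicates, for 7 members in all. All 5 calls with 3 replicates were at least 4-fold, against 3.87% of all genes, as were 5 of the 7 with replicates 1 and 2, against 3.84%. The median log2 fold change over the members was 2.76, and over all genes 0.01.

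**Figure D2:**
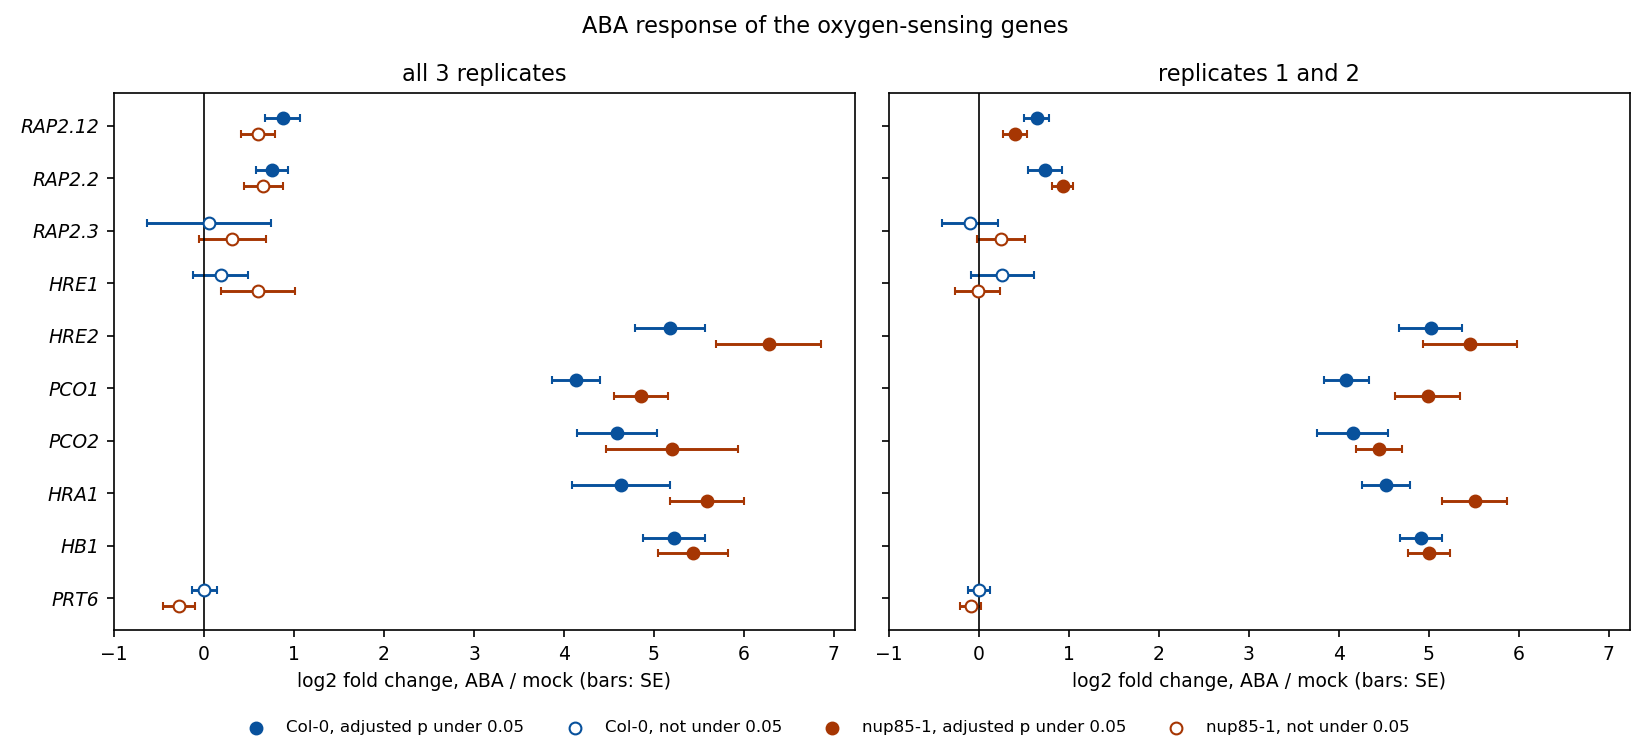
Log2 fold change from mock to ABA for each of the 10 genes in Col-0 (blue) and *nup85-1* (brown), with all 3 replicates on the left and replicates 1 and 2 on the right (bars: SE; filled points: adjusted p under 0.05). *HRE2*, *PCO1*, *PCO2*, *HRA1* and *HB1* lie between 4.08 and 6.28 in every fit, and the other members lie below 1.

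The order of the members by level changed with ABA. Per kilobase of annotated exon in Col-0 mock, *RAP2.3* was highest at a mean of 112 CPM per kb, followed by *RAP2.2* at 40.3, *RAP2.12* at 34.1, *HB1* at 22.6 and *PRT6* at 12.2 CPM per kb. *HRA1*, *HRE1*, *PCO1*, *PCO2* and *HRE2* followed at 4.01, 3.53, 2.37, 1.63 and 1.20 CPM per kb. Neighbours from *RAP2.3* to *RAP2.12* had overlapping ranges, as had neighbours from *HRA1* to *HRE2*, while *RAP2.12*, *HB1* and *PRT6* were each clear of the next. In Col-0 ABA *HB1* was first at 830 CPM per kb, clear of *RAP2.3* at 114 and *HRA1* at 96.6. *RAP2.2*, *RAP2.12*, *HRE2*, *PCO1* and *PCO2* lay between 67.4 and 36.7 CPM per kb, each neighbour overlapping the next, and *PRT6* at 12.1 and *HRE1* at 3.94 closed the order, both without overlap. In *nup85-1* ABA *HB1* at 744 and *HRA1* at 175 CPM per kb were followed by *RAP2.3* at 86.7, and the ranges of *HRA1* and *RAP2.3* overlapped by their extremes.

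The strongly raised members were also placed by the size of their fold among all genes tested in Col-0. They were grouped by that same fold, so a high place restates the grouping. *HB1* ranked 65, *HRE2* 70, *HRA1* 107, *PCO2* 112 and *PCO1* 146 of 20062 genes by log2 fold change. In *nup85-1* the ranks were 47, 31, 42, 51 and 71 of 20001 genes in the same order of names. Without replicate 3 they were placed lower, at 91, 86, 116, 156 and 162 of 20003 genes in Col-0 and at 91, 67, 65, 123 and 93 of 19936 genes in *nup85-1*. The other members ranked from 3076 (*RAP2.12*) to 9859 (*PRT6*) of 20062 genes in Col-0 with all 3 replicates.

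A comparison of the genotypes under mock asked whether the circuit was set differently before ABA. None of the 10 members was called with all 3 replicates, and none at an unadjusted p under 0.05 in edgeR or at an adjusted p under 0.05 in DESeq2. In the same fit 0% of 19606 genes were called (1010 at an unadjusted p under 0.05 in edgeR, 36 called by DESeq2). With replicates 1 and 2, 9 members could be tested, *HRE2* falling under the count filter, and again none was called, against 0.0155% of all genes. In that fit the unadjusted p in edgeR was under 0.05 for 2750 of 19390 genes. Among them were *RAP2.3* at -0.89 (SE 0.30) and *HB1* at -0.53 (SE 0.17). With the replicate number as a block, 0.311% of all genes and none of the members were called. The largest log2 difference with all 3 replicates, -0.68 for *RAP2.3*, had an SE of 0.66.

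After ABA the genotypes were compared in the same way. No member was called with all 3 replicates, none had an unadjusted p under 0.05 in edgeR, and DESeq2 called none. Of all genes, 0% were called in that fit (995 of 20270 at an unadjusted p under 0.05, 88 called by DESeq2). With replicates 1 and 2, 3.14% of all genes and none of the members were called.

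*HRA1* was the member with the largest difference after ABA. Its 3 *nup85-1* ABA libraries overlapped those of Col-0 by 1 library on each side, 265 CPM against 275 CPM. In pairs of equal replicate number, the log2 ratio of *nup85-1* to Col-0 was 0.96, 0.39 and 1.22. The fit gave 0.86 (SE 0.39, edgeR adjusted p = 1.00). Replicates 1 and 2 alone gave 0.75 (SE 0.33, edgeR adjusted p = 0.255).

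Same-numbered libraries of the genotypes deviated together, as did, less strongly, replicates 1 and 2 across numbers. The pairing was read from these same libraries, and the replicate number was also fitted as a block. The *HRA1* difference was then 0.86 (SE 0.17, edgeR adjusted p = 0.0691), while 1.38% of all genes were called. In the block on replicates 1 and 2 alone it was 0.68 (SE 0.15, edgeR adjusted p = 0.0291), where 8.73% of all genes were called. *HRA1* was the only member called under any of the alternatives run for this comparison.

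The other strongly raised genes did not share one direction between the genotypes. For *HRE2* the same-numbered log2 ratios were 0.69, 0.03 and 0.59, and for *PCO1* 0.46, 0.02 and 0.51. Both were higher in *nup85-1* in 3 of 3 pairs, with fitted differences of 0.51 (SE 0.41) and 0.35 (SE 0.25) that did not pass the test. *HB1* had ratios of -0.33, -0.54 and 0.20, and *PCO2* -0.46, -0.20 and 1.03. For both, replicate 3 pointed the other way, so that the fitted *PCO2* difference was 0.40 (SE 0.59) with all replicates and -0.36 (SE 0.22) without replicate 3, and the *HB1* difference -0.17 (SE 0.32) and -0.41 (SE 0.21). *RAP2.12* and *RAP2.2* were lower in *nup85-1* in 3 of 3 pairs, at -0.24 (SE 0.20) and -0.24 (SE 0.15), again without passing the test.

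**Figure D3:**
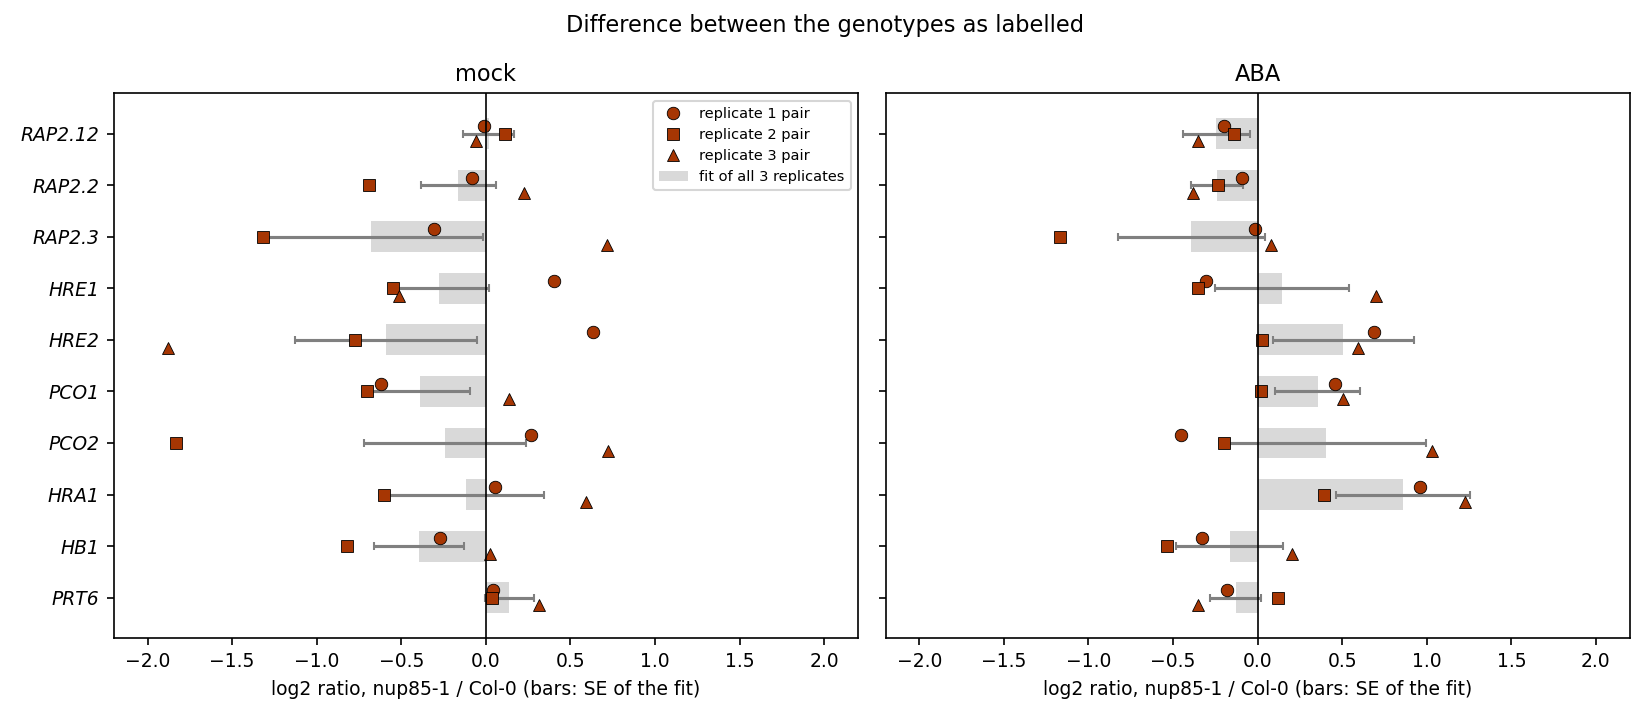
Log2 ratio of *nup85-1* to Col-0 for the 10 genes under mock (left) and after ABA (right), as the fit of all 3 replicates (grey, with SE) and for each pair of libraries of equal replicate number (brown). After ABA *HRA1* lies above 0 in 3 of 3 pairs, from 0.39 to 1.22, and *HB1* and *PCO2* change sign with replicate 3.

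The difference of the ABA responses was tested as an interaction. No member passed in edgeR with all 3 replicates, where 0% of 20574 genes were called (309 at an unadjusted p under 0.05, none of them a member, and 1 gene called by DESeq2), nor with replicates 1 and 2, where 0.00976% of all genes were. The largest interactions with all 3 replicates, as the *nup85-1* response minus the Col-0 response on the log2 scale, were 1.11 (SE 0.76) for *HRE2*, 0.98 (SE 0.65) for *HRA1* and 0.74 (SE 0.39) for *PCO1*. The values without replicate 3 were 0.46 (SE 0.96), 1.01 (SE 0.49) and 0.93 (SE 0.55), so that *HRE2* was then behind *HRA1* and *PCO1*.

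Outside the members, the rest of the N-degron pathway was a list of 14 genes, of which 13 were tested in both ABA comparisons with all replicates. In Col-0 only *PCO5* was called higher, against 16.5% of all genes, and none lower, the list median being 0.40 on the log2 scale. *PCO5*, an oxidase gene known as constitutively expressed, stood at 14.7, 17.0 and 20.4 CPM in Col-0 mock and at 35.7, 35.0 and 34.2 CPM in Col-0 ABA, a log2 fold change of 1.02 (SE 0.17, edgeR adjusted p = 0.00588). It rose by 1.02 in *nup85-1* as well (SE 0.13, edgeR adjusted p = 0.00283). *PCO4*, its close relative, was at 0.81 in Col-0 (SE 0.28, edgeR adjusted p = 0.0685) and 0.57 in *nup85-1* (SE 0.26). The arginyl transferase genes differed by 0.34 (*ATE1*, SE 0.20) and 0.31 (*ATE2*, SE 0.21) in Col-0, without passing the test.

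In *nup85-1*, 3 of the 13 were called higher, against 15.4% of all genes, and none lower, with a median of 0.24. Besides *PCO5* these were the methionine aminopeptidase gene *MAP2A* at 0.69 (SE 0.20) and *VRN2* at 0.43 (SE 0.13), whose Polycomb protein is a further substrate of the oxygen-sensing route. Replicates 1 and 2 gave 3 higher and 1 lower of 14 in Col-0, against 24.0% of all genes higher, and 4 higher of 13 in *nup85-1*, against 25.6%. The counts of this list were thus near the background. The 1 lower gene, named after its value was seen, was *ZPR2* at -2.22 (SE 0.58). That value rests on few reads, 10 and 14 in Col-0 mock and 8 and 4 in Col-0 ABA. Replicate 3 went the other way, with 2 reads (0.141 CPM) in Col-0 mock and 13 reads (0.479 CPM) in Col-0 ABA.

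The list of 43 further hypoxia-induced genes moved with the strongly raised members. Its genes were taken from general knowledge of the low-oxygen response, with earlier results of these data known. In Col-0, 36 were called higher, against 16.5% of all genes, and 1 lower, with a median log2 fold change of 2.69 against -0.01 for all genes. In *nup85-1* 37 were higher, against 15.4%, and 1 lower, with a median of 3.05. Replicates 1 and 2 gave 40 higher and 1 lower in Col-0 (median 2.3, 24.0% of all genes higher) and 39 higher and 1 lower in *nup85-1* (median 2.39, 25.6% of all genes higher).

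*ADH1*, the alcohol dehydrogenase of fermentation, rose from 16.4, 25.0 and 8.73 CPM in Col-0 mock to 1503, 1341 and 1928 CPM in Col-0 ABA, a log2 fold change of 6.60 (SE 0.50, edgeR adjusted p = 0.000688). *LBD41*, a transcription factor gene of the hypoxia response, went from 6.09, 8.04 and 4.93 CPM to 228, 200 and 151 CPM, or 4.96 (SE 0.28, edgeR adjusted p = 0.000479). Fermentation and regulator genes thus rose in the same libraries as *HB1* and *HRA1*. AT5G10040 had 1, 0 and 0 reads in Col-0 mock and stood at 39.7, 31.0 and 42.6 CPM after ABA. AT2G17850 went from 0.265, 1.06 and 0.0704 CPM to 139, 109 and 192 CPM. AT1G33055 rose by 6.60 on the log2 scale in Col-0 (SE 0.43).

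In *nup85-1* the genes with the largest log2 fold changes after AT2G17850 and AT5G10040 were *CML38*, a calmodulin-like gene, at 7.28 (SE 0.60) and AT4G24110 at 6.51 (SE 0.66). The single lower gene, named after its value was seen, was AT5G45960 at -3.25 in Col-0 and -3.33 in *nup85-1*.

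**Figure D4:**
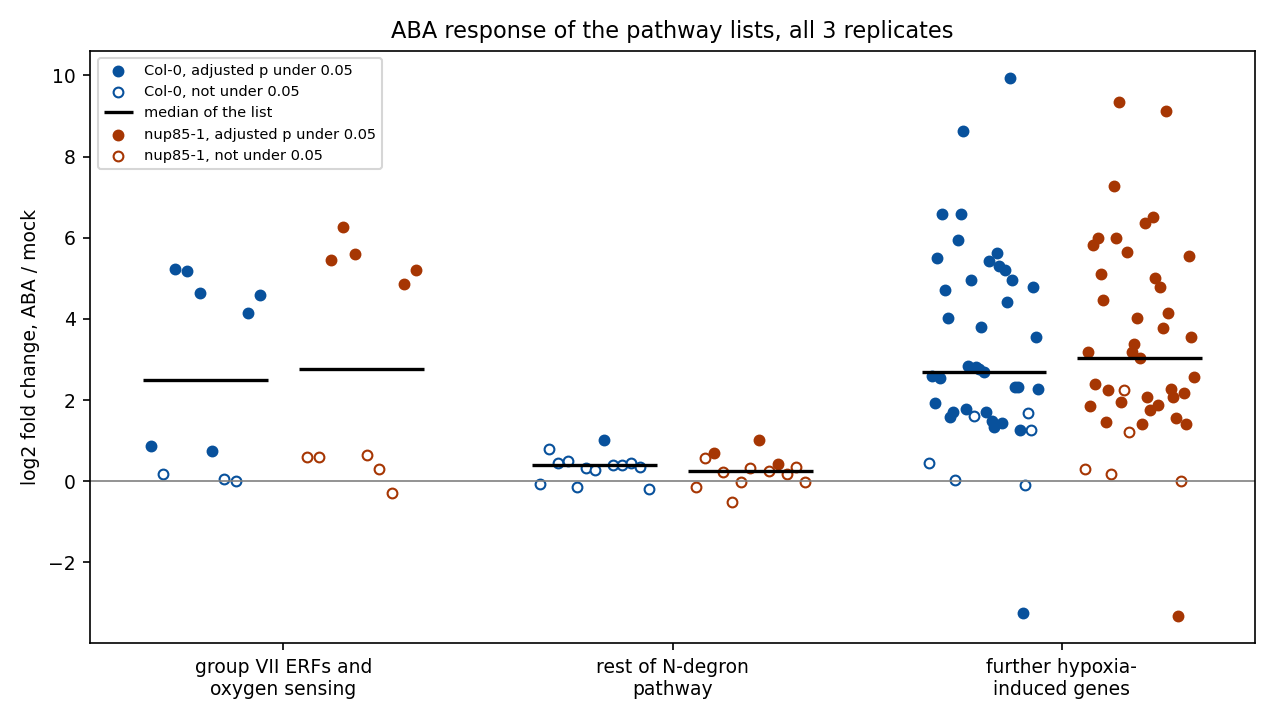
Log2 fold change from mock to ABA for the 10 members, for the tested genes in the rest of the N-degron pathway and for 43 further hypoxia-induced genes, in Col-0 (blue) and *nup85-1* (brown), all 3 replicates (filled points: adjusted p under 0.05; black lines: median). The hypoxia-induced genes have medians of 2.69 and 3.05 and the N-degron genes medians of 0.40 and 0.24.

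For *PDC1*, pyruvate decarboxylase, the *nup85-1* replicates parted. It stood at 258, 195 and 563 CPM in Col-0 ABA and at 40.1, 22.5 and 569 CPM in *nup85-1* ABA, from 5.16 to 12.3 CPM in all mock libraries. The *nup85-1* replicates 1 and 2 were far below Col-0, and replicate 3, whose *NUP85* level went against its label, was beside the highest Col-0 library. The genotype difference after ABA was -0.71 (SE 1.16) with all replicates and -2.86 (SE 0.29, edgeR adjusted p = 0.013) with replicates 1 and 2.

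Of the 43 hypoxia-induced genes none was called between the genotypes after ABA with all replicates, with a median of 0.09. With replicates 1 and 2, where 42 were tested, 4 were lower in *nup85-1* and 1 higher, against 3.14% of all genes called in either direction. The lower genes were *PDC1*, *ADH1* at -0.95 (SE 0.16), the sucrose synthase gene *SUS1* at -1.13 (SE 0.14) and AT1G19530 at -0.98 (SE 0.10), and the higher gene was AT4G10270 at 0.95 (SE 0.16). With the replicate block on all libraries, 3 were called higher and 2 lower, against 1.38% of all genes in either direction. The higher genes were AT4G10270 at 1.07, *SRO5* at 0.68 and AT1G63090 at 0.80, and the lower genes *ADH1* at -0.86 and *SUS1* at -0.99. Apart from *PDC1* and *ADH1*, these genes were named after their values were seen. *PDC1* at -1.96 was not called under the block (edgeR adjusted p = 0.17).

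The green-tissue markers moved with ABA as well, while the root markers did so mainly without replicate 3. The summed level of the 5 green-tissue markers was 22792 to 30217 CPM in Col-0 mock and 12162 to 18895 CPM in Col-0 ABA, and 25808 to 31128 CPM and 7237 to 20640 CPM in *nup85-1*. Of these 5 genes 2, *GLK1* and *LHCB2.1*, were called lower in both genotypes. Among all genes, 2989 of 20062 were called lower in Col-0 and 2766 of 20001 in *nup85-1*. With replicates 1 and 2 the count of green-tissue markers was 3 in Col-0 and 4 in *nup85-1*, against 4649 of 20003 and 5159 of 19936 genes. The 6 root markers summed to 1935 to 2646 CPM in Col-0 mock and 1278 to 3229 CPM in Col-0 ABA, and in *nup85-1* to 1157 to 2059 CPM and 609 to 2383 CPM, with no gene called. Most of the root sum came from *PYK10*, at 1920 to 2610 CPM in Col-0 mock and 1266 to 3195 CPM in Col-0 ABA. Without replicate 3 there were 3 root markers lower and 1 higher in Col-0 and 4 lower in *nup85-1*, beside the same counts of all genes called lower. Higher in Col-0 were 24.0% of all genes in that fit. In those libraries the root markers thus moved with ABA beside the members. The part of organ composition in the rises of the members was not tested, and in whole seedlings fewer cells of a type and less RNA per cell cannot be told apart.

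The genes whose pattern was most like that of the members known as hypoxia-induced were sought over the 12 libraries. *HRE1* is one of these members, although it was not called for ABA in either genotype. Likeness was the Pearson correlation of log2 CPM with the mean standardised profile of *HRE1*, *HRE2*, *PCO1*, *PCO2*, *HRA1* and *HB1*, among 15977 genes outside the members. The first were AT5G66985 (r = 0.993), the serine acetyltransferase gene *SERAT2;1* (0.990), AT4G08555 (0.989), AT4G18950 (0.989) and AT5G18400 (0.988). AT5G66985 is also in the list of hypoxia-induced genes. After the group means were removed, r was 0.914, 0.868, 0.916, 0.881 and 0.876 in the same order, over the libraries that chose these genes. The libraries of a group share their treatment. *HRE1*, although part of the profile, followed it with r = 0.59, and *RAP2.3* with 0.23 and *PRT6* with -0.62.

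Promoter letters were searched in the window from 250 bases before to 50 bases after each annotated start, on both strands. A loosened form of the hypoxia-responsive promoter element (AAACCA, then any 3 bases, then GC) was present in 286 of 27443 such windows (1.042%) and in 1 of the 10 members, *PCO1*. The match, on the minus strand, lies in the first transcribed bases of *PCO1*, at chr5:4898641-4898669 on TAIR10.1, and is shown with the element in capitals as read on the plus strand.
PCO1: aaaagaatgGCCCCTGGTTTtgtaatcga

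Among the 43 hypoxia-induced genes 6 held it in this window. In the 1000 bases before the start it was present in none of the members and in 3.414% of all genes. The core of the ABA-responsive element, ACGTG, was present in the nearer window of *RAP2.2* and *RAP2.3* and in 26.72% of all genes, and in the 1000 bases before the start of 6 members and of 54.41% of all genes. This core is contained in the G-box CACGTG, which was found in no member's nearer window and in 7.678% of all. The 5 strongly raised genes therefore held no ACGTG in the nearer window, which says only that these letters are not in that stretch. In the 1000 bases before the start *HRE2*, *PCO2* and *HB1* held it. *PCO2* held a G-box there, as did 14.78% of all genes.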

How the data were processed

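Libraries of total RNA from 12 seedling samples were sequenced by the authors. Per the paper's methods and the submitters' processing notes, reads were checked with FastQC, trimmed with the FASTX-Toolkit, aligned to TAIR10 with TopHat2 and assigned to genes with featureCounts. Their versions and the strand setting are not given in the sources used here. The deposited table holds raw counts of reads for 33602 genes, without normalization. From these, CPM was computed with TMM factors, and each comparison was fitted on its own libraries in edgeR 4.0.16 (R 4.3.3) with filterByExpr, the quasi-likelihood test and Benjamini-Hochberg adjustment over all genes tested, at 0.05. The SE is the log2 fold change divided by the square root of F. Higher calls at 4-fold were also counted. DESeq2 1.42.0 was an alternative, beside other scalings, no filter, replicate blocks, removal of organelle genes and each library left out. Libraries held 6616931 to 29798437 reads, with medians of 27692679 in Col-0 ABA and 11509063 in Col-0 mock. In *nup85-1* the medians were 14541880 after ABA and 10541053 under mock. Counting limits are wide for *HRE2* under mock.

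The labels do not say whether replicates came from separate cultures, so p-values measure the spread between these libraries. Same-numbered libraries deviated together between genotypes (r of their deviations from group means 0.48 to 0.73 under mock, 0.56 to 0.76 after ABA), which is where the pairing comes from. Between treatments r was lower (-0.10 to 0.29 in Col-0, 0.04 to 0.25 in *nup85-1*), and replicate 2 gave the lowest value in both genotypes. For replicates 1 and 3 it was 0.29 and 0.23 in Col-0 and 0.25 and 0.24 in *nup85-1*. Replicates 1 and 2 of the genotypes also deviated together across numbers, with r of 0.33 and 0.28 under mock and 0.40 and 0.46 after ABA. The members and lists were chosen with earlier results of these data known. All 10 members were named. Other list genes were named if called in 1 direction with all 3 replicates and with replicates 1 and 2, up to 4 per comparison by size, with *PCO4*, *PCO5*, *ATE1*, *ATE2*, *ADH1*, *PDC1* and *LBD41* always named. Similar genes were the 5 with the highest correlation at a mean of at least 5 CPM. Sequences and gene positions are from RefSeq on TAIR10.1.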

Additional observations from a re-analysis of the deposited data

How the results depend on the processing

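In the count of members called for ABA in Col-0, leaving out replicates or libraries gave 4 to 7 (4 without replicate 1), and every other alternative gave 7. In *nup85-1* the count was 5, with 5 to 7 over leaving out replicates or libraries (7 without replicate 3, 6 without *nup85-1* mock replicate 3), 7 with DESeq2 and with the block on replicates 1 and 2, 6 with DESeq2 on them and 5 otherwise. The count between genotypes after ABA was 1 with the replicate block on replicates 1 and 2 only and 0 otherwise. *HRE2*, *PCO1*, *PCO2*, *HRA1* and *HB1* kept their direction under ABA in both genotypes under all alternatives run, and lost a call only for *HRA1* in Col-0 without replicate 1. Upper-quartile scaling moved the median of all genes in Col-0 to -0.15 and the calls there from 3310 higher and 2989 lower to 2666 and 3798. Over all genes, the calls in *nup85-1* ABA went from 5838 to 10269 without replicate 3. Between genotypes, edgeR called 0 genes under mock and 0 after ABA with all replicates, 3 and 624 without replicate 3, 61 and 279 with the replicate block, 438 and 1735 with the block on replicates 1 and 2, and DESeq2 called 36 and 88, or 176 and 1028 on replicates 1 and 2.

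Signs changed only among values that passed no test. In Col-0 ABA, *RAP2.3* (0.06) was -0.026 with the block on replicates 1 and 2, -0.079 with upper-quartile scaling and -0.084 with DESeq2 on replicates 1 and 2, an alternative added after the data were seen, and -0.41 to 0.83 with libraries left out. *PRT6* (0.0035) was -0.0012 with that block, -0.0013 with DESeq2 size factors, -0.13 with upper-quartile scaling, -0.0037 without organelle genes and -0.0098 to 0.030 with libraries left out, and *HRE1* was -0.088 to 0.43. In *nup85-1* ABA, *HRE1* was -0.0078 with the block on replicates 1 and 2 and -0.014 to 0.87 with libraries left out, and *RAP2.3* was -0.10 to 0.58.

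Between genotypes under mock, *HRA1* was 0.0010 with the replicate block on all libraries. With libraries left out, *RAP2.12* was -0.056 to 0.12, *RAP2.2* -0.39 to 0.093, *RAP2.3* -1.14 to 0.11, *PCO2* -0.73 to 0.51 and *HRA1* -0.50 to 0.32. *HRE2* gave no value without replicate 3. After ABA, the block on replicates 1 and 2 and DESeq2 on them gave -0.32 and -0.34 for *HRE1* and -0.33 and -0.35 for *PCO2*. Libraries left out gave -0.82 to 0.014 for *RAP2.3*, -0.42 to 0.41 for *HRE1*, -0.58 to 0.76 for *PCO2* and -0.48 to 0.063 for *HB1*. For the interaction, the same 2 fits gave 0.21 and 0.20 for *RAP2.2* and -0.26 and -0.25 for *HRE1*, and libraries left out -0.35 to 0.22 for *RAP2.2*, -0.50 to 0.75 for *RAP2.3*, -0.25 to 0.87 for *HRE1*, -0.41 to 1.18 for *PCO2* and -0.10 to 0.47 for *HB1*. The causes were not tested. Apart from *HRA1*, the replicate block changed no member's call between genotypes.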
